A study of Homo sapiens with 47 samples.

Results

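PAEP, the gene for the secreted glycoprotein glycodelin, was 1 of 25739 genes in a table of single-cell RNA-seq values of circulating tumor cells (CTCs). It was chosen for description with its values in these cells already known, as a gene with many reads in CTCs and none in cultured cells, so its levels and its contrast with the culture are given here without a test. The 37 CTCs came from 5 mice, and 6 cells of the same line grown in culture were measured beside them. The line, MDA-MB-231-LM2 (LM2), is a human triple-negative breast cancer line derived from MDA-MB-231 for its growth in the lung, and its cells carry GFP. For the CTCs, LM2 cells were injected into the mammary fat pad of NSG mice, which lack T cells, B cells and NK cells. Blood was drawn from the heart and enriched for CTCs by cell size, and GFP-positive, CD45-negative cells were picked one by one. The cultured LM2 cells were grown in DMEM with fetal bovine serum and are treated here as 1 culture. The sources used here do not state the number of cultures or explain the P in the library names LM-P3 and LM-P4. Each picked cell gave 1 SMARTseq2 library, a full-length cDNA method without unique molecular identifiers.

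Glycodelin belongs to the lipocalins, small secreted proteins with a barrel-shaped fold that often carry a lipid or another small hydrophobic molecule, although glycodelin itself is known mainly for its sugars. It is made in large amounts by the glands of the endometrium in the secretory phase and by the decidua of early pregnancy, where progesterone induces it. Its glycoforms act on sperm binding and dampen responses of T cells, NK cells and other leukocytes, and the gene is also transcribed in some carcinomas and melanomas.

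PAEP (ENSG00000122133) lies on the forward strand of chromosome 9 of GRCh38, from 135561756 to 135566955. GENCODE release 44 gives it 9 transcripts, 8 of them coding, and the transcript PAEP-201 has 7 exons. No other annotated gene overlaps it. The exons of all transcripts together cover 1454 bases. The promoter is shown because CTCs and cultured cells of 1 line differed in reads of the gene downstream of it. These are the 250 bases of the RefSeq promoter on GRCh38.p14 before the start, chr9:135561506-135561755 on the forward strand, with 3 short motif matches in capitals.
PAEP promoter: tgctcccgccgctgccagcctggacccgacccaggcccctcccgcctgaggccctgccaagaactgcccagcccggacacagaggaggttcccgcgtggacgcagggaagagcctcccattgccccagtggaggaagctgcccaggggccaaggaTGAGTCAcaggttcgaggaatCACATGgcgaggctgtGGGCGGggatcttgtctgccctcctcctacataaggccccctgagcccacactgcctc
In all 5 patterns were searched on both strands. The AP-1 motif TGANTCA matched with its first base 95 bases before the start, and 6.57% of 35116 RefSeq promoter windows of the same length held it. CACATG, the M-box CATGTG read on the other strand, matched 74 bases before the start, and 9.42% of the windows held it. The same letters also match the E-box CANNTG, which 61.8% of the windows held. The GC box GGGCGG, a letter pattern bound by Sp factors, matched 58 bases before the start, and 42.6% of the windows held it. AGAACA, a half-site of glucocorticoid and progesterone receptors, was not among these letters, while 12.4% of the windows held it. A match is a description of the letters and says nothing of binding in these cells.

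PAEP reads were present in 26 of the 37 CTCs, or 70.3% (53.0% to 84.1%, exact 95% binomial interval), and in 0 of the 6 cultured LM2 cells, which allows a share of up to 50% at a limit of 3 cells and of up to 45.9% by the exact interval. Its mean normalized count, the reads of a gene scaled by a size factor per cell, was 1560 over the 37 CTCs, and the median was 274. CTCs from 1 mouse share their source, so this interval covers counting error only, as do the floors given here. Over the mouse means the level was 1990 ± 1822 (SD, n = 5 mice). The distribution was wide. In 11 CTCs no PAEP read was counted, 6 CTCs lay below 100, 6 lay between 100 and 1000, and 14 were at or above 1000. The 3 CTCs with the most PAEP held 44.4% of the sum over all CTCs, and the top 10 held 85.1%.

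**Figure D1:**
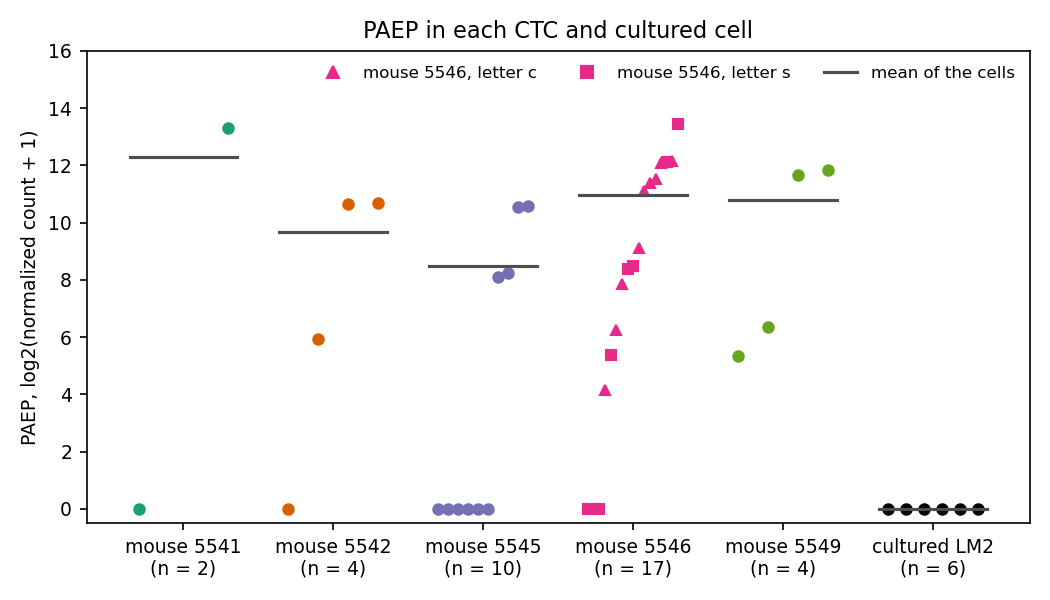
PAEP in each of 37 CTCs, by mouse, and in 6 cultured LM2 cells, as log2(normalized count + 1); points are cells and horizontal bars mark the mean of the normalized counts put on the same scale. CTCs without a read appear at 0 in mice 5541, 5542, 5545 and 5546, all 6 cultured cells are at 0, and the highest CTC, at 11010, belongs to mouse 5546.

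Mouse 5541 gave 2 CTCs, of which 5541-1 had a normalized count of 10048 and 5541-5 had 0. In mouse 5542 the 4 CTCs had 1624, 1602, 59.4 and 0. The 4 CTCs of mouse 5549 had 3669, 3244, 79.9 and 39.0, so this was the only mouse with PAEP reads in each of its CTCs. In mouse 5545 PAEP was detected in 4 of 10 CTCs, at 1545, 1478, 299 and 274, and the other 6 had 0. The 17 CTCs of mouse 5546 ran from 0 to 11010 with a median of 353, and 14 of them had PAEP reads. By mean, the mice fell in the order 5541 with 5024, 5546 with 1986, 5549 with 1758, 5542 with 821 and 5545 with 360. Neighbours in this order overlapped widely in their single cells, and the first place rested on 1 of 2 CTCs. In mouse 5546, 9 library names hold a c and 8 hold an s, and the meaning of these letters is not given in the sources used here. PAEP was detected in 9 of 9 libraries with c, from 16.7 to 4569 with a mean of 1952, and in 5 of 8 with s, where the values were 11010, 4464, 353, 330, 40.0 and 3 times 0, with a mean of 2025. The medians were 2181 with c and 185 with s, and 2 libraries, 5546-s6 and 5546-s1, held most of the sum of those with s. All PAEP-zero CTCs of this mouse had the letter s. Most of the spread lay between CTCs of the same mouse, since on the log2(value + 1) scale the SD within mice, pooled over them, was 4.84 and the SD of the 5 mouse means was 1.90.

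The place of PAEP among the transcripts of a cell varied widely. CTC 5541-1 gave it 1.29% of all reads on genes (17861 of 1381851), which made it the transcript of rank 5 in that cell. It was among the first 10 genes in 2 CTCs and among the first 100 in 14, while in the 12 others with PAEP it ranked from 169 to 4284. By mean over the CTCs PAEP ranked 80 of 25739 genes. Per kilobase of exon its mean was 1073, rank 38 of 25684 genes, directly below HBB, the beta-globin gene, and above MIF, a secreted cytokine. Its neighbours by this per-length level also included CD63, a membrane protein of endosomes and exosomes, TPI1, an enzyme of glycolysis, the ribosomal protein genes RPL5 and RPL35, PHLDA2, an imprinted growth regulator, and TXN, the gene for thioredoxin, with the mitochondrial genes MT-ND4L and MT-ATP8. They differed from PAEP in evenness. The SD of log2(value + 1) over the CTCs was 4.93 for PAEP, the highest of 6870 genes that were detected in at least 12 CTCs with a mean of at least 8, against a median of 2.25 over these genes. For RPL35 it was 0.69 and for HBB 3.74.

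Between CTCs with and without PAEP there was a gap. The lowest nonzero PAEP value was 16.7, which rested on 32 reads in CTC 5546-c10, and the highest was 658 times as large. Among 3402 other genes with a mean of at least 8 that were detected in 21 to 31 CTCs, none had 32 or more reads in its lowest positive CTC, the median was 1 read and the highest 29. Of the 75 such genes with a mean of at least 100, the highest had 24. PAEP had a mean of 1560 and was chosen for its many reads, and these genes were not matched to it in level. The comparison is therefore a description and shows no trait particular to PAEP. After thinning of all cells to the 469614 reads of the shallowest CTC, all 26 CTCs kept PAEP reads and the lowest had 13. A count of 3 reads in the PAEP-zero CTCs would have been a normalized count of 1.38 to 3.31. The PAEP-zero CTCs had 644520 to 1850860 reads on genes, with a median of 1147010. The CTCs with PAEP had 469614 to 2041333, with a median of 1273200. Genes detected had a median of 7424 (2313 to 10153) in the PAEP-zero CTCs and 7892 (4991 to 12299) in the others. The lowest of these counts, 2313 in 5545-6 and 4656 in 5546-s9, were in PAEP-zero CTCs. The mitochondrial share had a median of 7.15% in the PAEP-zero CTCs and 6.52% in the others. Its highest values, 23.9% in 5546-s7 and 22.7% in 5546-s9, were in PAEP-zero CTCs too. The part of library quality in the zeros was not tested.

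**Figure D2:**
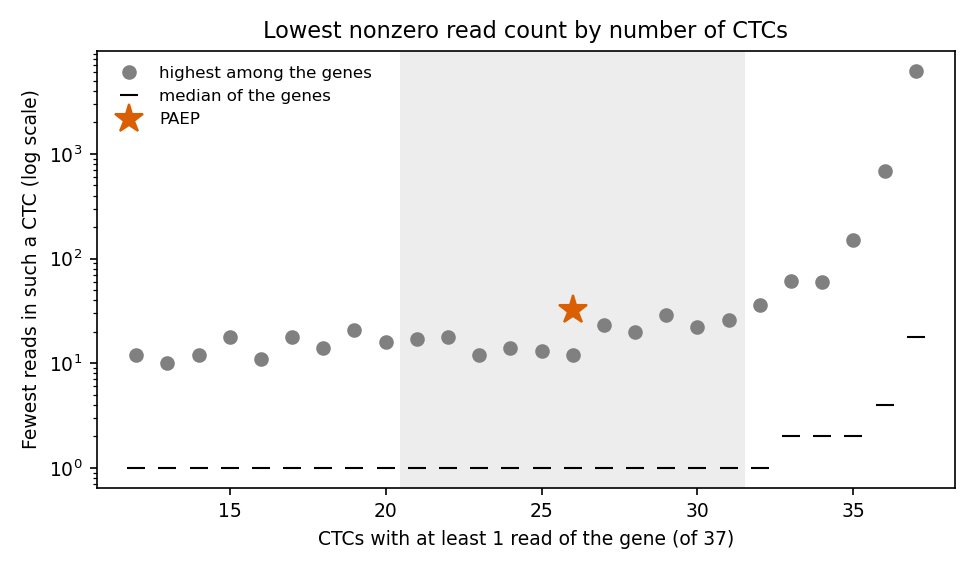
For genes with a mean of at least 8, grouped by the number of CTCs with a read (x axis), the fewest reads in such a CTC (y axis, log scale): gray dots are the highest gene of each group, dashes the median and the star PAEP, and the shaded band covers 21 to 31 CTCs. PAEP, with 32 reads in its lowest positive CTC of 26, lies above every gene in the band, where the highest has 29. Genes in the band are not matched to PAEP in level.

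Against the culture, the comparison rests on 5 mouse means and 1 cultured sample, and it is the contrast by which PAEP was chosen. The cultured cells had 776949 to 1186197 reads on genes each and 5522296 together, so that 3 reads over the group would be 0.543 RPM, which are reads scaled to 1000000 on genes in each cell. The CTCs had 2619 ± 2346 RPM (SD, n = 5 mice), 4822 times this floor, and the lowest mouse, 5545, had 515, 947 times the floor. The floor covers counting error of the pooled reads only. With PAEP in 0 of 6 cultured cells, up to 45.9% of such cells could carry it. Neither fold is therefore a lower bound on the ratio to the culture. With 1 added to both means, the log2 ratio of the normalized counts was 10.96, a value that depends on the number added. A rule of size asked that the mean of each mouse differ at least 4-fold from the culture in 1 direction after adding 1, with the larger mean at 8 or more. Of 9164 genes that could pass, 6, or 0.0655%, were higher in CTCs and 487, or 5.31%, were lower. PAEP was among the 6 and had the highest log2 ratio, and since this contrast chose it nothing is read from that. The others were HBB and HBD, both globin genes, AREG, the gene for the EGFR ligand amphiregulin, MEI1, a gene of meiosis, and ACTA2, the gene for smooth muscle actin. The median log2 ratio of the tested genes was -1.20. Of 9709 genes with no read in any cultured cell, PAEP had the highest mean in CTCs, followed by HBB with 1497 and HBD with 390. By the number of CTCs it ranked 15 among them.

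Markers of the line were present in the CTCs. VIM, the gene for vimentin, was detected in 37 of 37 CTCs and AXL, a receptor tyrosine kinase of mesenchymal-like breast cancer cells, also in 37, while CDH1, the gene for E-cadherin, was detected in 1. Of the other epithelial markers, the keratin genes KRT8 and KRT18 were detected in 37 CTCs each and KRT19 in 31, EPCAM in 8 and ESRP1, a splicing regulator, in 2. The summed level of the 6 mesenchymal markers ranged from 5046 to 24940 in CTCs with PAEP and from 3977 to 24931 in CTCs without it, against 8757 to 12612 in culture, and the sum had Spearman's ρ = 0.07 with PAEP across CTCs. The 6 epithelial markers had ρ = -0.07. Since PAEP is measured per cell here, a higher share of reads may go with more PAEP RNA or with less other RNA in the cell, and the 2 cannot be told apart.

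Transcripts of blood cells were also found in the CTC libraries and were scarce in the culture, and their relation to PAEP differed between mice. Of the 5 erythroid markers 3 were in the table, and HBB was detected in 35 CTCs, HBA2 in 29 and ALAS2 in 20, while all 3 were at 0 in the cultured cells. Their sum had a median of 1270 (6.36 to 12509) in the 26 CTCs with PAEP and 23.1 (0 to 2943) in the 11 without. The sum of the neutrophil markers S100A9, CSF3R and MPO had a median of 49.7 (0 to 571) in CTCs with PAEP and 0 (0 to 352) in those without. For the leukocyte markers, of which PTPRC, the gene for CD45, was detected in 11 CTCs, the sums had a median of 6.64 (0 to 157) in CTCs with PAEP and 0 (0 to 419) in those without. Platelet markers had at least 1 read in 8 CTCs. Across the 37 CTCs ρ with PAEP was 0.27 for the erythroid sum, 0.32 for the neutrophil sum and 0.16 for the leukocyte sum. These values depended most on mouse 5545, where ρ with the neutrophil sum was 0.76 and with the leukocyte sum 0.64 over 10 CTCs. Without that mouse ρ was 0.0092 for the erythroid, 0.011 for the neutrophil and -0.023 for the leukocyte sum over 27 CTCs, of which 22 had PAEP. In mouse 5546 the 3 PAEP-zero CTCs had erythroid sums of 986 to 2943, within the range of 179 to 4061 of its 14 CTCs with PAEP. Their leukocyte sums were 0.69 to 419 with a median of 205, against 0 to 35.3 in the 14. Their neutrophil sums were 94.9 to 352, against 14.0 to 335. The CTCs were picked from mouse blood and their reads were aligned to the human genome, and the part of blood-cell RNA or of mouse reads in the PAEP values was not tested.

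Correlations of PAEP with measures of the library differed between sets of CTCs. Across the 37 CTCs ρ was 0.11 with reads on genes, 0.27 with genes detected and -0.16 with the mitochondrial share. With the mitochondrial share ρ was -0.31 in mouse 5545 and -0.46 in mouse 5546. Split by letter, it was -0.38 over the 9 c libraries and -0.51 over the 8 s libraries. Of the 3 PAEP-zero CTCs of mouse 5546, 5546-s7 had 23.9%, 5546-s9 22.7% and 5546-s4 7.15% mitochondrial reads, and the lowest PAEP value above 0, in 5546-c10, came with 21.5%. CTC 5546-s1, with a PAEP value of 4464, had 16.8%. With reads on genes ρ was 0.63 over the s libraries and -0.33 over the c libraries. The part of RNA quality and depth in the PAEP values was not tested. The points share libraries and mice, and these values are descriptions.

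The genes whose pattern was most like that of PAEP were ranked by Spearman's ρ of the normalized counts across the 37 CTCs, over 6869 other genes detected in at least 12 CTCs with a mean of at least 8. The median ρ was 0.06, and 95% of the genes lay between -0.24 and 0.37. In 15 genes, 0.218% of those ranked, ρ was at least 0.5, and in 0 genes it was -0.5 or below. The count was 88 without mouse 5545, 56 without 5546, 30 without 5549 and 25 without 5541, and the 10 highest genes in these settings shared 2, 4, 7 and 5 with the 10 named here, so the list rests on which mice are included. The points share the number of genes detected per cell, on which many genes depend, and 11 CTCs are tied at 0 for PAEP. The 10 highest were ARHGAP17 (0.69), SIK2 (0.64), GLIS3 (0.61), MIR4435-2HG (0.58), TIAL1 (0.55), YAP1 (0.55), TATDN2 (0.54), CANT1 (0.52), FURIN (0.52) and CYTOR (0.52). Of these, GLIS3 with a mean of 8.10, TATDN2 with 8.80, ARHGAP17 with 9.44 and SIK2 with 9.46 lay just above the limit of 8. That mean was taken over all 37 CTCs, so a gene low in PAEP-zero CTCs could pass through its values in the others. Low values of these genes without PAEP are thus partly set by the limit. Just inside the limit of 0.5 was MIEF1 with 0.503, and just outside was SIVA1 with 0.496. Given the number of genes detected per CTC, 7 genes were at or above 0.5, all of them among these 10.

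**Figure D3:**
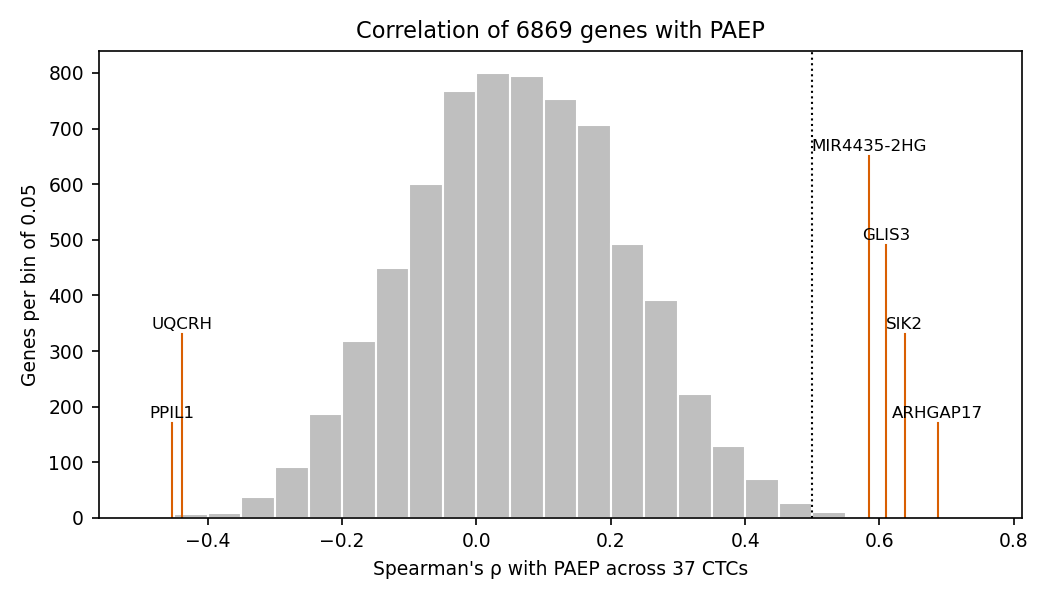
Histogram of Spearman's ρ with PAEP across 37 CTCs for 6869 genes in bins of 0.05 (y axis, genes per bin); the dotted line marks 0.5 and orange lines mark the 4 highest and 2 lowest genes, at heights chosen for legibility. The median is 0.06, and ARHGAP17 lies farthest to the right at 0.69.

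ARHGAP17 (chromosome 16 from 24919389 to 25015666, reverse strand) encodes a GTPase-activating protein of cell junctions. It was detected in 13 of the 14 CTCs with PAEP at or above 1000, with a median normalized count of 18.0, in 4 of the 12 with less PAEP, and in 3 of the 11 PAEP-zero CTCs. Its highest values were 48.8 in 5546-s6 and 47.6 in 5546-c5, and 5546-s6 was also the CTC with the most PAEP. Of the PAEP-zero CTCs, 5546-s9 had 19.4, so the groups overlapped. The mean over the cultured cells, which had no PAEP, was 20.5, above the CTC mean of 9.44. ρ was 0.67 within mouse 5546, 0.23 within mouse 5545, and 0.78 over the 26 CTCs with PAEP alone.

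SIK2 (chromosome 11 from 111602449 to 111730855, forward strand), a kinase of the salt-inducible family that acts on CREB coactivators and class II histone deacetylases, was detected in 12 of the 14 CTCs at or above 1000, in 6 of the 12 with less PAEP and in 2 of the 11 without. Its highest value was 160 in 5546-s8, where PAEP was 353, and the PAEP-zero CTCs did not exceed 3.21. Within mice ρ was 0.58 in mouse 5546 and 0.24 in mouse 5545. GLIS3 (chromosome 9 from 3824127 to 4348392, reverse strand), a zinc finger transcription factor, was detected in 12 CTCs with PAEP and in 1 without, at 0.79 there. It had ρ = 0.72 in mouse 5546 but -0.26 in mouse 5545, and its value of 157 in 5549-2 was far above the next, 51.2 in 5546-c1.

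**Figure D4:**
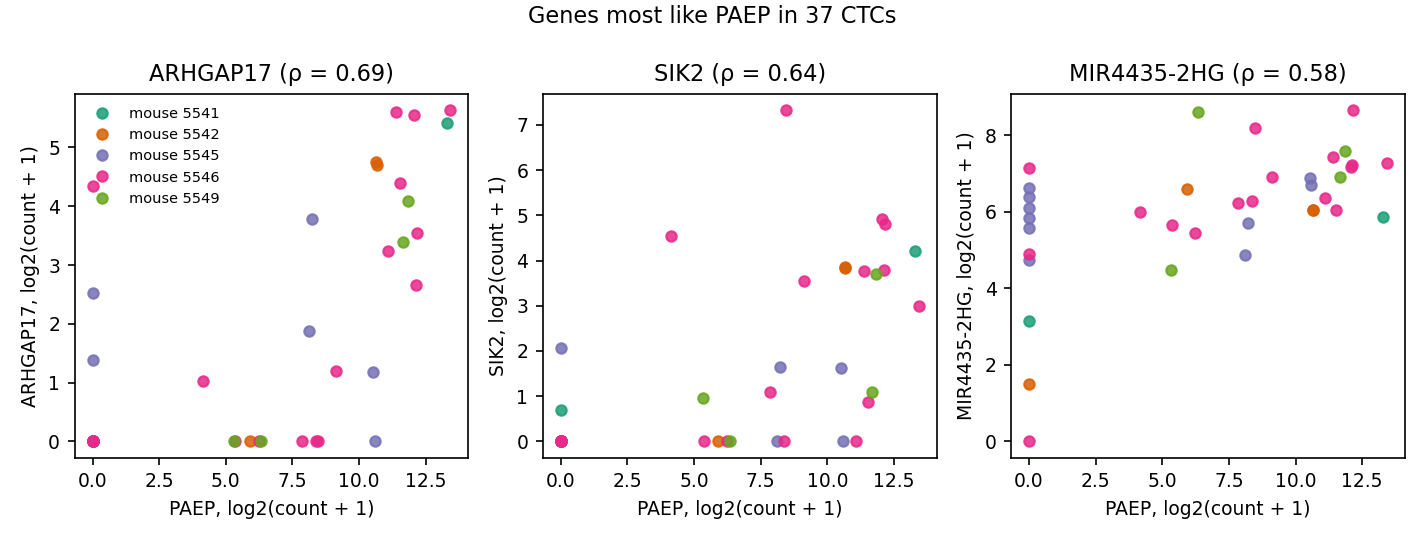
ARHGAP17, SIK2 and MIR4435-2HG (y axes) against PAEP (x axes) in 37 CTCs, all as log2(normalized count + 1), with the mouse of each CTC by color. CTCs at 0 for PAEP stand at the left of each panel, 3 of these 11 have ARHGAP17 reads, and MIR4435-2HG has reads in 10 of them.

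MIR4435-2HG and CYTOR are long noncoding RNAs from near-identical copies on chromosome 2, so reads could be split or lost between them and both values are uncertain. MIR4435-2HG had a median of 88.8 in CTCs with PAEP and 46.5 in those without, with ρ = 0.73 in mouse 5546 and 0.39 in mouse 5545. CYTOR had medians of 185 and 55.8, and ρ was 0.69 in mouse 5546 and -0.0068 in mouse 5545. TIAL1, an RNA-binding protein of stress granules, was detected in 24 CTCs with PAEP and 7 without, and its ρ of 0.70 in mouse 5545 and 0.63 in mouse 5546 fell to 0.28 over the CTCs with PAEP alone. YAP1, the transcriptional coactivator of the Hippo pathway, was detected in 18 CTCs with PAEP and 3 without. FURIN, a protease that cleaves proproteins in the secretory pathway, had a median of 31.8 in CTCs with PAEP and 5.51 in those without. It was the gene with the highest ρ of the 10 within mouse 5545, at 0.81, and had 0.41 in mouse 5546. CANT1, a nucleotidase of the Golgi, had ρ = 0.01 in mouse 5545 and 0.51 in mouse 5546. TATDN2, a nuclease, was detected in 15 CTCs with PAEP and 1 without.

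Of these 10 genes, 8 had a positive ρ in mouse 5545 and 10 in mouse 5546. ρ was 0.5 or more for 2 of them in the first and 8 in the second. In each of these 2 mice alone, 0 of the 10 were again among the 10 highest of that mouse. Over the 26 CTCs with PAEP alone, 3 of the 10 kept ρ of 0.5 or more, and 2 were again among the 10 highest. Ranking by Pearson's r of log2(value + 1) kept 4 of the 10 and brought in 6, of which the highest 5 were PLS3, an actin-bundling protein, CD81, a tetraspanin, TMEM179B, TM2D2 and CTPS1, an enzyme of CTP synthesis, with r from 0.52 to 0.55. PLS3 was detected in 26 of 26 CTCs with PAEP and in 8 of the 11 without, with medians of 86.8 and 12.7. On the other side, the 5 lowest genes were PPIL1, a spliceosomal cyclophilin, with ρ = -0.45, UQCRH, a subunit of complex III of the respiratory chain, with -0.44, ARPC1A, a subunit of the Arp2/3 complex, with -0.43, CUTA with -0.42 and BCL7B, a subunit of chromatin remodeling complexes, with -0.42. PPIL1 had a median of 61.4 in CTCs with PAEP and 141 in those without, and UQCRH 56.8 and 151.

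The genes around PAEP on chromosome 9 were described next, 10 genes of the table on each side. OBP2A, a lipocalin gene whose start lies 15.6 kb upstream, was detected in 9 CTCs, and each of these 9 also had PAEP. Of 447 genes detected in 9 CTCs, 5.59% likewise had all 9 among the CTCs with PAEP. Its highest values were 108 (203 reads) in 5546-s1 and 43.5 (75 reads) in 5546-s6, and the other 7 CTCs had 1 to 14 reads. Of the 14 CTCs with PAEP at or above 1000, 8 had OBP2A, against 1 of the 12 with less PAEP, 5545-15 with 1 read. The share of equally detected genes that split in this way was not computed. PAEP had a median of 2682 in the CTCs with OBP2A reads and 49.7 in the other CTCs, which include the 11 without PAEP. The levels were far apart, with 41.4 PAEP reads per OBP2A read in 5546-s1, 253 in 5546-s6 and 17861 in 5541-1. LCN1, the lipocalin of tears, 40.3 kb upstream, had 1 to 5 reads in 4 CTCs. OBP2B, a close copy of OBP2A, lies 2356 kb upstream, by the lower end of its span, and had at most 25 reads in 5 CTCs. All of these CTCs had PAEP too, as 29.5% of the genes detected in 4 CTCs and 22.9% of those in 5 CTCs did. OBP2A and OBP2B are similar enough that reads may be split between them. No read of the 3 genes was counted in the cultured cells, and together they were found in 9 CTCs, none of which had a PAEP value below 274.

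**Figure D5:**
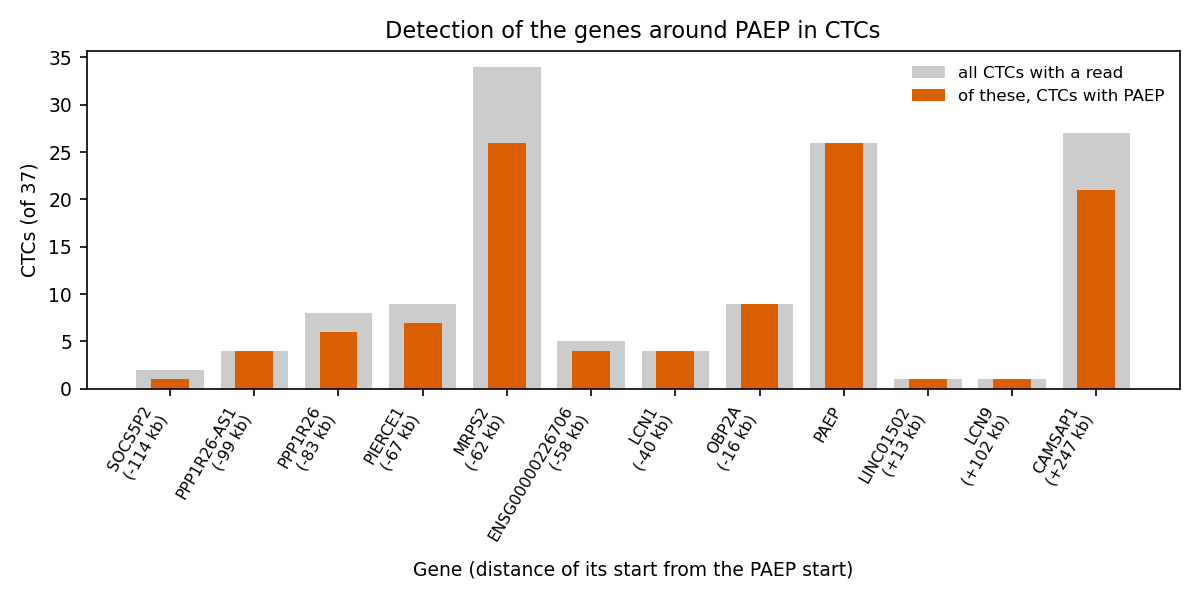
Number of the 37 CTCs with at least 1 read (y axis, gray bars) of PAEP and of the table's genes whose start lies within about 300 kb of its start, in genomic order with distances in kb; narrow orange bars count those CTCs that also had PAEP. OBP2A has 9 CTCs, each with PAEP, and MRPS2 has 34, of which 26 had PAEP.

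On the other side LINC01502, 13.2 kb downstream, had 1 read in 1 CTC, and LCN9 was detected in 1. MRPS2, a mitochondrial ribosomal protein gene 61.8 kb upstream, was detected in 34 CTCs with ρ = 0.31. The other neighbours detected in at least 12 CTCs were CAMSAP1, UBAC1, NACC2, TMEM250 and QSOX2, with ρ from -0.17 to 0.34. Of the 20 neighbours 5 could pass the rule of size and 0 did, beside 0.0655% of all genes higher and 5.31% lower, and the median log2 ratio of the 5 was -0.08. In the lipocalin family as a whole, 11 of 18 members other than PAEP were in the table and 10 had at least 1 read in a CTC. LCN2, the lipocalin of neutrophil granules, had reads in 10 CTCs, 7 of them with PAEP, and at most 12.6. AMBP, APOD, APOM, PTGDS and LCN12 were each detected in 1 or 2 CTCs. None reached the 12 CTCs needed for the ranking.

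Steroid hormones such as progesterone act through nuclear receptors, which were described from a fixed list of 8 genes. PGR, the progesterone receptor, had 1 read in each of 3 CTCs, ESR1, the estrogen receptor alpha, had 2 reads in 1, and ESR2 was detected in 2. NR3C1, the glucocorticoid receptor, was detected in 35 CTCs, with a mean of 67.3 against 83.9 in culture and ρ = -0.04 with PAEP. The membrane-associated PGRMC1 had 87.9 in CTCs and 225 in culture with ρ = -0.34, and PGRMC2 had 16.6 and 19.2 with ρ = 0.42. Of the 8, 3 could pass the rule of size and 0 did. Of 10 genes that steroid hormones induce, 7 could pass it and 0 did, beside 0.0655% of all genes higher and 5.31% lower, so that counts of 0 in lists of this size are near the background, with a median log2 ratio of 1.90 against -1.20 over all genes tested. Over the mouse means TSC22D3, which encodes the glucocorticoid-induced leucine zipper, had 231 ± 297 (SD, n = 5 mice) against 20.04 in culture, DUSP1, a phosphatase of MAP kinases, 915 ± 574 against 245, SGK1, a kinase that regulates ion transport, 102 ± 89.6 against 34.6, PER1, a clock gene, 12.3 ± 22.7 against 2.46, and KLF9, a transcription factor, 8.01 ± 10.1 against 0.60. FKBP5, a cochaperone of steroid receptors, had 3.56 ± 4.76 against 32.7, and DDIT4, an inhibitor of mTORC1, 462 ± 423 against 496. PER1 and KLF9 reached the limit of 8 only through the CTCs and FKBP5 only through the culture. The median log2 ratio is thus partly set by that limit. For the 6 of these genes that could be ranked, ρ with PAEP lay between -0.10 and 0.32, with the highest in DDIT4.

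Of 24 other genes of the secretory endometrium and decidua 18 were in the table, 11 could pass the rule of size and 0 did (all genes 0.0655% higher and 5.31% lower), with a median log2 ratio of -0.54, and ρ ran from -0.19 to 0.24 over the 9 that were ranked. STC1, a secreted hormone of calcium and phosphate balance, had 2164 ± 3394 (SD, n = 5 mice) against 215 in culture, a mean that rested on 16381 in 5541-1, the CTC in which PAEP was 10048. Across all CTCs its ρ with PAEP was -0.02. IGFBP1, a marker of decidual cells, was detected in 22 CTCs and 4 cultured cells with ρ = 0.09, and GPX3, the gene for an antioxidant selenoenzyme, in 33 CTCs with ρ = 0.24. Other listed genes detected in at least 12 CTCs were LIF, CD55, ANXA4, ARID5B, DKK1 and IL15.

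The sugars of glycodelin are built by Golgi enzymes. Of 13 such genes on a fixed list 12 were in the table, and B4GALNT3 and B4GALNT4, which make the LacdiNAc units found on glycodelin, each had 1 read in 1 CTC, 5545-1, which had no PAEP. MGAT1, which starts the branching of complex N-glycans, was detected in 33 CTCs with ρ = 0.18, and B4GALT1, a galactosyltransferase, in 34 with ρ = 0.13. FUT8, which adds the core fucose, was detected in 32 with ρ = 0.32, MGAT4B, a branching enzyme, in 28 with ρ = -0.08, and MGAT2, another branching enzyme, in 13 with a mean of 0.91. Of the 12, 4 could pass the rule of size and 0 did. The Sp factors bind GC boxes and histone deacetylases repress PAEP in endometrial cells. All 8 genes of that list, SP1, SP3, HDAC1, HDAC2, HDAC3, HDAC8, EP300 and CREBBP, were detected in at least 12 CTCs and 0 passed the rule of size, which is near the 0.0655% higher and 5.31% lower of all genes. Their median log2 ratio was -1.37, near the -1.20 of all genes tested, and ρ ranged from -0.14 to 0.29. MITF, the melanocyte factor that binds M-boxes, had reads in 5 CTCs with a mean of 3.67 and in 5 of 6 cultured cells with 33.1. Over the 8 lists together, 0 members had ρ of 0.5 or more among those ranked, against 0.218% of all ranked genes. For lists of this size a count of 0 is near that share. OBP2A, in 9 CTCs with a mean of 4.75, was below the limits of the ranking, and its ρ with PAEP was 0.59.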

How the data were processed

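The deposited values are a signal: the authors aligned reads with STAR 2.7.10a to GRCh38, counted uniquely mapped reads per GENCODE gene without strand, and divided them by DESeq2 1.42.1 size factors. Of 47 labelled cells, 4 CTCs are marked as left out of the processed data and 43 were used. Mice were read from library names. Dividing by the smallest nonzero value of a cell gave whole numbers for 100% of values (tolerance 0.001), taken as reads, and the CTCs had 469614 to 2041333 of them on genes. Names and coordinates came from GENCODE release 44, which matched 25684 of 25739 identifiers. PAEP and all gene lists were chosen with earlier results of these data known. Neither single cells nor the 1 culture give replicates, so no p-value is given.

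Named genes are PAEP, the 10 with the highest and 5 with the lowest ρ, the next 5 by Pearson's r, listed or neighbouring genes found in at least 12 CTCs, and genes close to PAEP per kilobase. Listed genes in fewer CTCs, the genes past the rule of size and the genes next to the limit of 0.5 were named after their values were seen. The values of 1 listed gene are not reported here. Listed means are over CTCs unless given as ± SD. As alternatives, other averages, pseudocounts (0.1 and 8), thresholds, thinning, removal of mice or cells were run, with edgeR's quasi-likelihood test of the summed reads of each mouse against those of the culture. The comparison of lowest reads, the values by library letter, the sharing of CTCs by neighbours and the blood-cell sums by mouse were added after seeing the data. Python 3.11.15, numpy 2.4.6, pandas 2.3.3, scipy 1.17.1, R 4.3.3 and edgeR 4.0.16 were used, and the steps were tested on simulated data.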

Additional observations from a re-analysis of the deposited data

Results flagged for a closer look

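PAEP, OBP2A, ARHGAP17 and SIK2 were examined for a single distant cell in each group of 4 to 10 cells with differing values. Of 13 such groups 3 had one. Chance flags about 1 in 20 groups of evenly spread values, a rate that does not apply to groups held mostly at 0 or to genes picked for their likeness to PAEP. In mouse 5545, CTC 5545-15 had an OBP2A value of 1.34, a single read, and the other 9 CTCs had 0. In the same mouse ARHGAP17 was 12.7 in CTC 5545-4, the shallowest library, and 4.75 in the next. In mouse 5549 SIK2 was 12.1 in CTC 5549-2, which also had the most PAEP of that mouse, and 1.12 in the next.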

How the results depend on the processing

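PAEP detection stayed between 69.5% and 72.4% under the other thresholds, thinning, averaging over mice and removal of the s libraries, and between 60% and 81.5% with each mouse left out. The mean level was 1198 to 2005 with each mouse left out, 1298 without the highest CTC and 1867 with cells scaled to equal reads. The log2 ratio to the culture was 14.28 with 0.1 and 7.96 with 8 added, and 10.27 to 11.23 with each mouse or cultured cell left out.

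The genes with ρ of at least 0.5 numbered 7 given the genes detected, 14 over the CTCs with PAEP alone and 58 without the s libraries. They numbered 451 in mouse 5546 alone and 394 in mouse 5545 alone, where fewer cells widen ρ by construction. With each mouse left out they numbered 19 to 88, with 25 without mouse 5541, 88 without 5545, 56 without 5546 and 30 without 5549, and these rankings shared 5, 2, 4 and 7 of the 10 highest genes. In mouse 5545 alone ρ changed sign for GLIS3 (-0.26), CYTOR (-0.0068) and BCL7B (0.21). Leaving out each mouse gave ρ of 0.0092 to 0.38 with the erythroid sum, 0.011 to 0.50 with the neutrophil sum, -0.023 to 0.33 with the leukocyte sum and -0.25 to 0.12 with the mitochondrial share, which was positive without mouse 5546. The cause of these changes was not tested.

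At 2-fold, 24 genes were higher and 2298 lower in CTCs. The quasi-likelihood test in edgeR called 0 higher and 0 lower of 13813 genes, with 241 at an unadjusted p under 0.05, and its spread comes from the mice alone. Of the listed and neighbouring genes 50 were detected in at least 5 CTCs and 38 in at least 12. No paired analysis was possible because the mice share no number with the single culture. A gene without reads in a CTC may be below the detection limit of its library.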
